A study of Rattus norvegicus with 9 samples.

Results

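The genes described here are the enzymes and the carrier of the N-acetylaspartate (NAA) cycle: Nat8l, Aspa, Rimkla, Rimklb, Folh1, Naalad2 and Slc13a3. They were chosen by gene name, and each name matched 1 locus, which gives 7 of the 34890 loci in the expression table. Slc13a3 was put forward because it was much lower in drug-treated than in untreated injured rats, and the other 6 genes were added for their place in the same cycle while results of these data were known. All values of PLM against SNI are therefore given for the 7 genes as a description, without a test. The RNA came from the ipsilateral lumbar spinal cord of wild-type male Sprague Dawley rats, with 3 biological replicates in each of 3 groups. JA rats underwent sham surgery and received saline, SNI rats underwent spared nerve injury (ligation and cutting of the common peroneal and tibial nerves, with the sural nerve left intact) and received saline, and PLM rats had the same injury and received paeoniflorin and liquiritin by gavage. The labels give paeoniflorin as 20.65 mg/mL in all PLM rats and liquiritin as 3.98, 3.99 and 3.100 mg/mL in PLM replicates 1, 2 and 3. The methods of the study describe PLM as a group given a single dose, so these label values may be an entry error and are not read as different doses. No group received the drugs without injury, so an effect of the drugs alone cannot be told apart from an effect on the injured cord.

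NAA is among the most abundant small molecules of neurons. Nat8l makes it from aspartate and acetyl-CoA, and Rimkla and Rimklb can join it to glutamate to form the dipeptide NAAG, a transmitter that acts on the metabotropic glutamate receptor encoded by Grm3. Folh1 and Naalad2 are cell-surface peptidases that split NAAG back into NAA and glutamate, the sodium-dependent dicarboxylate carrier Slc13a3 brings NAA and Krebs cycle acids such as succinate into glia, and Aspa in oligodendrocytes cleaves NAA into aspartate and acetate, which can feed myelin lipid synthesis.

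Promoter windows of Slc13a3 and Aspa are shown because these are the members with the widest and the narrowest range over the 9 samples. RefSeq sequences on build GRCr8, from 250 bases before to 50 after the annotated start, were matched for 6 of the 7 genes. Both windows lie on the minus strand, Slc13a3 at chr3:174623844-174624143 and Aspa at chr10:58438988-58439287, and are written 5′ to 3′ with the E-box CACGTG in capitals.
Slc13a3: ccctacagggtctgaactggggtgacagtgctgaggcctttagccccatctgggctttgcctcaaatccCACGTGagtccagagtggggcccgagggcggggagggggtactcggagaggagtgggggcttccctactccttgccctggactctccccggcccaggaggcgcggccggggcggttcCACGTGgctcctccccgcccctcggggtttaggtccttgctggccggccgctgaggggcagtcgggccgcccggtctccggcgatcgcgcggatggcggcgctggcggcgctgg
Aspa: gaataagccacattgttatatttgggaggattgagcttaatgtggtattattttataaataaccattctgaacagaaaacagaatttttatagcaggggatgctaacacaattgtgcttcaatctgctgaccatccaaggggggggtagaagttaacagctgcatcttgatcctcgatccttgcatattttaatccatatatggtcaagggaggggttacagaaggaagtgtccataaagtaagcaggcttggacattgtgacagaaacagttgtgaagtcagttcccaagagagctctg
The Slc13a3 window was 71.7% G and C and that of Aspa 40.3%, against a median of 51.7% over all promoter windows. The Slc13a3 window held CACGTG at 2 places, which begin 181 and 64 bases before the start, and none of the other 5 windows held it. Of 33469 windows of the same length, 6.42% held CACGTG at least once and 0.520% at least 2 times. The GC box GGGCGG, read on both strands, was found 4 times in the Slc13a3 window and 0 times in that of Aspa. Of all windows, 33.1% held it at least once and 17.0% at least 2 times. TATAAA on either strand was found 3 times in the Aspa window and not in that of Slc13a3, and 14.2% of all windows held it. CCAAT on either strand, which 37.5% of all windows held, was in neither. These letter matches describe the windows and show no binding.

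Markers of the expected cell types were present in all libraries, and no list had a marker at 0 in every sample. The 12 oligodendrocyte markers summed to between 47238 and 57454 TPM (transcript abundance corrected for length, with the same total in each library) and the 12 neuron markers to between 2210 and 4457 TPM. Markers of Schwann cells, which belong to the nerve roots, ranged from 55.7 TPM in JA replicate 2 to 5963 TPM in JA replicate 3, so the libraries differ in this content. The 13 mitochondrial protein genes took 23.7% to 26.1% of TPM in SNI, 31.3% to 32.8% in PLM and 25.3% to 32.8% in JA. Since the total is the same in each library, a larger share of these genes lowers all others. The median log2 fold change of all loci tested was 0.12 in SNI vs JA, -0.10 in PLM vs JA and -0.21 in PLM vs SNI. Changes are therefore given as deposited and after each sample was centred on its own median, where these medians were -0.01, 0.03 and 0.04.

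The members differed widely in level. Over the 9 samples Nat8l averaged 184.6 TPM, Aspa 76.5 TPM, Slc13a3 23.4 TPM, Rimklb 14.2 TPM, Rimkla 10.4 TPM, Folh1 9.01 TPM and Naalad2 0.290 TPM. In every group all Nat8l values lay above all Aspa values, all Aspa values above those of the other members, and Naalad2 below the rest. Slc13a3 came next after Aspa in SNI without overlap with Rimklb, and in JA with overlap. In PLM, Rimklb took that place, and its range of 10.5 to 12.1 TPM overlapped that of Slc13a3, 8.96 to 10.5 TPM, the gene chosen for its low level there. Rimkla and Folh1 overlapped in all groups. The ratio of highest to lowest sample was 4.12 for Slc13a3 and 1.20 for Aspa, with the other members tested between 1.71 and 2.43.

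**Figure D1:**
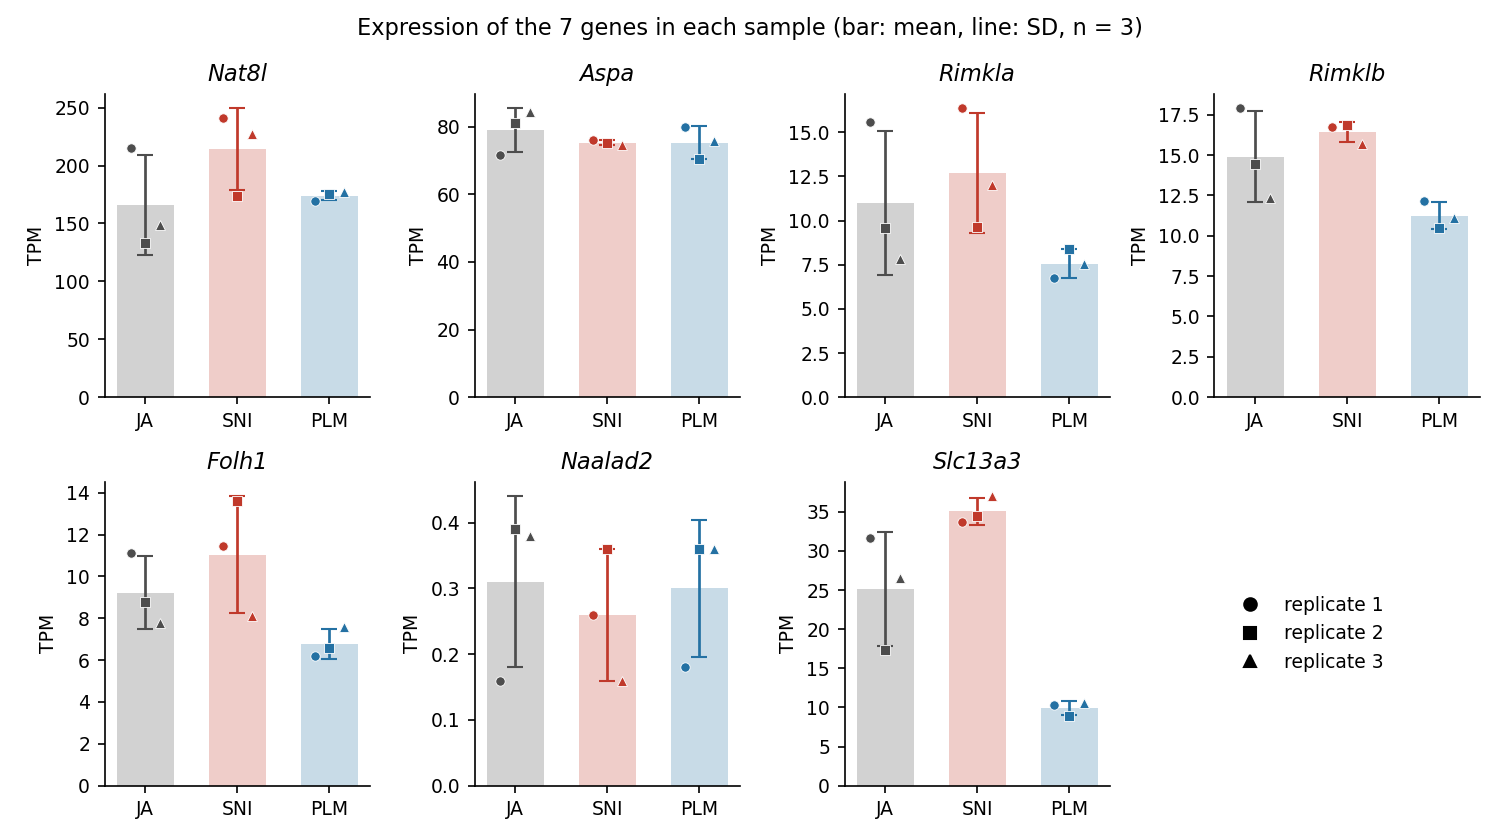
TPM (vertical axis, from 0) of each of the 7 genes by group, where bars are means, lines are SD over 3 samples and symbols mark replicates. Slc13a3 sits at 8.96 to 10.5 TPM in PLM, below every JA and SNI sample, while Aspa stays between 70.4 and 84.3 TPM in all samples.

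Slc13a3 (ENSRNOG00000019118), the carrier, was at 31.65, 17.31 and 26.53 TPM in JA replicates 1, 2 and 3. It was at 33.66, 34.5 and 36.96 TPM in SNI and at 10.28, 8.96 and 10.52 TPM in PLM. Every SNI sample was above every JA sample, and every PLM sample was below both other groups. The group means (± SD, n = 3) were 25.2 ± 7.27, 35.0 ± 1.71 and 9.92 ± 0.840 TPM. The spread in JA rests on the low value of replicate 2, and the SD in JA was larger than in the other groups.

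Nat8l (ENSRNOG00000049351), the NAA synthase, was at 215.14, 133.19 and 149.02 TPM in JA, at 241.45, 173.82 and 226.97 TPM in SNI and at 169.46, 175.01 and 177.28 TPM in PLM. The JA and SNI samples were scattered over a wide range and the PLM samples lay close together within it, so the groups overlapped. Their means were 165.8 ± 43.5, 214.1 ± 35.6 and 173.9 ± 4.02 TPM (SD, n = 3).

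Rimkla (ENSRNOG00000008625), a NAAG synthetase, was at 15.6, 9.59 and 7.83 TPM in JA, at 16.38, 9.66 and 12.04 TPM in SNI and at 6.73, 8.39 and 7.54 TPM in PLM. PLM lay below SNI without overlap and overlapped with JA, where replicate 1 stood high. Rimklb (ENSRNOG00000023814), which makes NAAG and also the citrate dipeptide beta-citrylglutamate, was at 17.92, 14.43 and 12.34 TPM in JA, at 16.73, 16.85 and 15.69 TPM in SNI and at 12.14, 10.49 and 11.1 TPM in PLM. All PLM samples of Rimklb were below all samples of both other groups, although the highest PLM and the lowest JA sample lay close together.

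Folh1 (ENSRNOG00000013770), the main NAAG peptidase, glutamate carboxypeptidase II, was at 11.14, 8.76 and 7.77 TPM in JA, at 11.45, 13.6 and 8.09 TPM in SNI and at 6.19, 6.56 and 7.57 TPM in PLM. The PLM samples were again below all others, and SNI replicate 3 was close to the JA and PLM samples. Naalad2 (ENSRNOG00000005955), the related glutamate carboxypeptidase III, was between 0.16 and 0.39 TPM in all 9 samples and did not pass the limit of a mean of 1 TPM set for testing. Folh1 was at least 18.2 times the level of Naalad2 in each sample. Aspa (ENSRNOG00000019659), the NAA hydrolase, was at 71.71, 81.14 and 84.27 TPM in JA, at 76.1, 75.23 and 74.52 TPM in SNI and at 79.9, 70.37 and 75.71 TPM in PLM, with full overlap between groups.

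To ask what the injury did, SNI was compared with JA. No member passed an adjusted p-value under 0.05 in limma with Benjamini-Hochberg adjustment over all 15557 loci tested, and neither did any other locus (0%). The SNI samples are among those on which Slc13a3 was put forward, and a high level there was part of that choice, so its values in this comparison are not independent of it either. Slc13a3 was the member with an unadjusted p-value under 0.05, 1 of 6 tested, against 7.10% of all loci. That count was 0 without JA replicate 2, JA replicate 3, SNI replicate 1 or SNI replicate 3, and 3 without JA replicate 1. The share of all loci moved with it, to between 3.08% and 4.58% in the former settings and 17.8% in the latter. Its log2 fold change on the log2(TPM + 1) scale was 0.50 (SE 0.21, adjusted p = 0.614, limma). On centred values it was 0.38 (adjusted p = 0.889, limma), where 0 of 6 members and 4.83% of all loci had an unadjusted p-value under 0.05. It was also the member without overlap between the groups, where 12.1% of all loci were higher in SNI without overlap. Without JA replicate 2 the log2 fold change of Slc13a3 was 0.26, and without JA replicate 3, the library rich in Schwann cell markers, it was 0.56. Nat8l had a log2 change of 0.38, Folh1 0.22, Rimkla 0.21, Rimklb 0.15 and Aspa -0.07, with adjusted p-values from limma between 0.614 and 0.768. These sizes rested on single libraries. Without JA replicate 1 they were 0.59 for Nat8l, 0.35 for Folh1, 0.47 for Rimkla, 0.28 for Rimklb and -0.13 for Aspa. Without JA replicate 3 Folh1 had 0.12, Rimkla 0.02, Rimklb 0.03 and Aspa -0.02, and without JA replicate 2 Nat8l had 0.24. Rimkla had 0.03 without SNI replicate 1 and 0.38 without SNI replicate 2, and Folh1 had 0.07 without SNI replicate 2 and 0.41 without SNI replicate 3. The astrocyte markers had a median of 0.47 in this comparison, with 18 of 18 above 0, and 0 with an unadjusted p-value under 0.05 in limma. The members' median was 0.22, against 0.12 for all loci. Without JA replicate 3 these medians were 0.07 and 0.08, and without JA replicate 1 they were 0.41 and 0.16. On centred values they were 0.10 and -0.01. A two-sided exact permutation test cannot go below p = 0.10 with 3 against 3 samples, and reached that value for Slc13a3.

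PLM was also compared with JA, which share neither injury nor treatment. No member passed the adjusted threshold, which 0.0195% of the 15349 loci tested passed. At an unadjusted p-value under 0.05 there were 3 of 6 members, Slc13a3, Folh1 and Rimklb, all lower, against 11.8% of all loci. The count was 1 without JA replicate 2, PLM replicate 1 or PLM replicate 2, 2 without JA replicate 1 or PLM replicate 3, and 4 without JA replicate 3. The share of all loci moved with it, to between 6.33% and 8.17% in the settings with 1 member, 10.5% and 9.65% in those with 2 and 19.8% in that with 4. Slc13a3 had a log2 change of -1.22 (SE 0.21, adjusted p = 0.254, limma), which is 2.54-fold lower by the ratio of mean TPM. It alone of the members passed the thresholds of the study's methods, an unadjusted p-value under 0.05 with an absolute log2 fold change above 1, as did 0.658% of all loci in the lower direction. The gene passed them in each of the 14 other settings tried, with log2 fold changes from -1.46 to -1.04 and adjusted p-values between 0.0766 and 0.652. The value was -1.10 on centred values and -1.17 without JA replicate 3. Of the 18 astrocyte markers, 18 were also below 0 in this comparison, with a median of -0.86, 12 at an unadjusted p-value under 0.05 and 4 past the study's thresholds, and on centred values 9 and 1. Of the 6 markers of meninges and fibroblasts, 6 were below 0, with a median of -1.01, and 3 passed those thresholds, but 0 on centred values. None of these markers passed the adjusted threshold in limma, and their part in the result for Slc13a3 was not tested. The PLM samples are those on which Slc13a3 was put forward, so this comparison is not independent of that choice. Folh1 had a log2 change of -0.39 (adjusted p = 0.409, limma) and Rimklb of -0.36 (adjusted p = 0.412, limma). These 3 genes had all PLM samples below all JA samples, as did 15.7% of all loci. After centring, Slc13a3 and Folh1 remained past the unadjusted threshold and without overlap, 2 of 6 members, where 9.98% of all loci passed the former and 6.93% were lower without overlap. Slc13a3 also passed the study's thresholds after centring, as did 0.306% of all loci in the lower direction. Rimkla had a log2 change of -0.44 (adjusted p = 0.512, limma), with the groups overlapping. Nat8l had 0.10 and Aspa -0.07, with adjusted p-values from limma of 0.842 and 0.800. Without JA replicate 1 the values were -0.26 for Folh1, -0.23 for Rimklb, -0.18 for Rimkla, 0.30 for Nat8l and -0.13 for Aspa. Nat8l had -0.04 without JA replicate 2 and 0.04 without JA replicate 3, and Aspa had 0.06 on centred values.

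The comparison of PLM with SNI holds the injury constant and asks what the drug combination did. As a description, Slc13a3 had a log2 change of -1.72 (SE 0.08), and the ratio of mean TPM was 3.53-fold lower in PLM. Rimkla had -0.65 (SE 0.18), Folh1 -0.61 (0.18) and Rimklb -0.51 (0.08). Nat8l had -0.28 (0.12) and Aspa 0.00 (0.06). Nat8l had -0.43 without SNI replicate 2 and -0.19 without SNI replicate 1, and Aspa lay between -0.04 and 0.05 with 1 sample left out. In 4 of the 6 members above the limit of 1 TPM the PLM samples lay below SNI without overlap, beside 41.9% of all loci, and nothing is read from that count. After centring, the log2 fold changes were -1.48 for Slc13a3, -0.41 for Rimkla, -0.36 for Folh1, -0.26 for Rimklb, -0.04 for Nat8l and 0.25 for Aspa. On centred values Slc13a3 and Rimklb kept all PLM samples below all SNI samples, beside 9.73% of all loci, and Aspa had all PLM samples above, beside 14.1%. Nat8l was thus close to the median gene in this contrast, and Aspa, level in TPM, stood above it. On the same centred values 12 of 12 oligodendrocyte markers were above 0, with a median of 0.12 and 6 without overlap. The medians of 8 microglia, 5 endothelium, 3 ependyma and 3 blood markers were 0.25, 0.35, 0.11 and 0.80, and that of 12 neuron markers was 0.02. The medians of 18 astrocyte markers, 4 Schwann cell markers and 6 markers of meninges and fibroblasts were -1.04, -0.42 and -0.32. The part of these markers in the value for Aspa was not tested. The comparisons share their samples in pairs, and each is given by its own values.

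**Figure D2:**
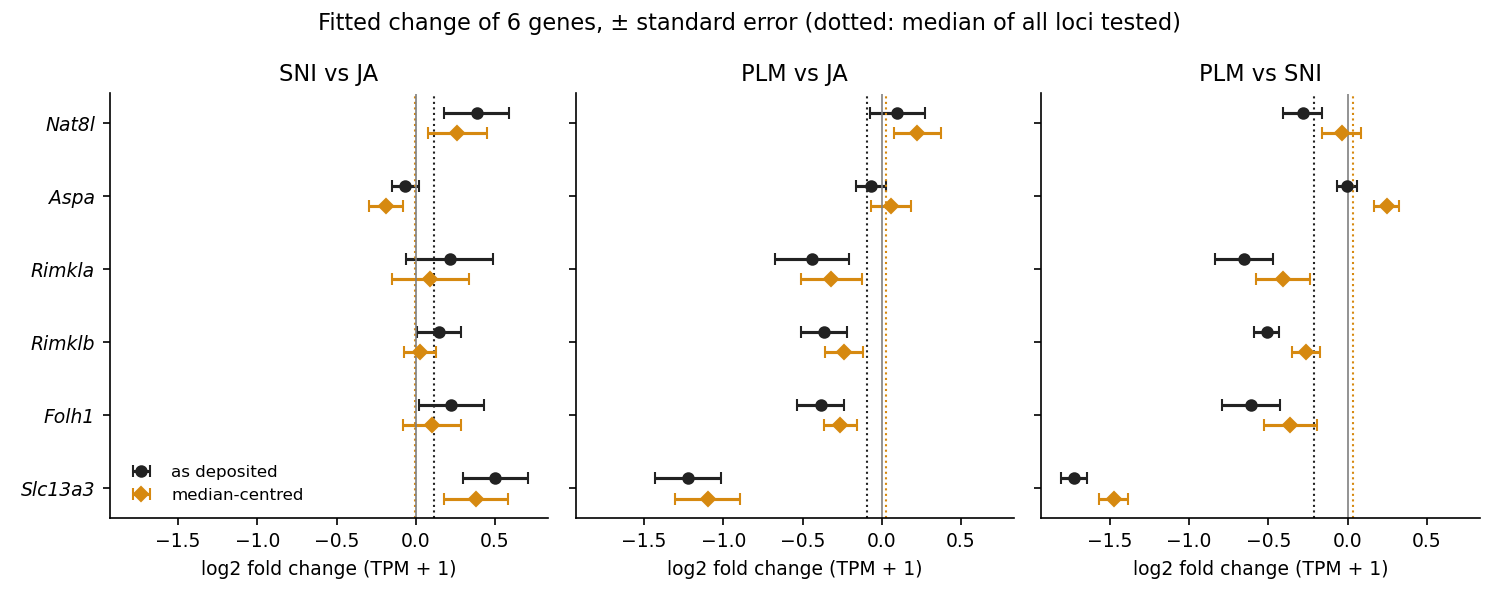
Fitted log2 fold change (horizontal axis, log2 scale) with standard error of the 6 tested genes in each comparison, as deposited (circles) and median-centred (diamonds), with dotted lines at the median of all loci. Slc13a3 lies farthest from the median of all loci in PLM vs JA, at -1.22, and in PLM vs SNI, at -1.72.

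Relative to Aspa, Slc13a3 stood at 0.323 ± 0.114, 0.466 ± 0.0275 and 0.132 ± 0.00639 (SD over 3 samples of JA, SNI and PLM), and its ratio to Folh1 was 2.74 ± 0.724, 3.35 ± 1.08 and 1.47 ± 0.164. The low ratios in PLM follow from the choice of Slc13a3 for its low level there. The ratio of the 2 NAAG synthetases varied within groups, from 0.573 to 0.979 in SNI, and the groups overlapped, with Rimkla at 0.723 ± 0.128, 0.773 ± 0.203 and 0.678 ± 0.123 of the Rimklb level in JA, SNI and PLM. A ratio shows unequal levels and not which gene moved.

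Slc13a3 is known from astrocytes, and astrocyte markers moved in the same contrast. Of 18 markers, which do not include Slc13a3, all 18 had a log2 fold change below 0 in PLM vs SNI and 17 passed an adjusted p-value under 0.05 in limma, as did 13.6% of all loci in the lower direction. Their median was -1.28, and -1.04 on centred values, where 11 passed, against 0.685% of all loci. No marker was at 0, and their summed level was 6328 to 7621 TPM in SNI, 3315 to 3995 TPM in PLM and 4514 to 7474 TPM in JA. Slc1a2, a glutamate carrier, had the lowest value of the list, -1.95, and the transcription factor Sox9 the highest, -0.47 (adjusted p = 0.195, limma). Of the 18 markers, 3 had a lower value than Slc13a3 in this contrast. In such bulk RNA fewer cells of a type and less RNA per cell cannot be told apart, and the part of the astrocyte markers in the result for Slc13a3 was not tested.

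The level of Slc13a3 relative to the astrocyte markers is given for each sample as a description, since the gene was chosen for its fall from SNI to PLM. On the log2 scale it differed from the mean of the markers by -1.71, -2.13 and -0.80 in JA replicates 1, 2 and 3, by -1.62, -1.59 and -1.25 in SNI and by -2.03, -2.08 and -1.69 in PLM. All PLM samples were lower relative to the markers than all SNI samples, with means of -1.94 ± 0.21 and -1.49 ± 0.20 (SD, n = 3). The difference between them was -0.45, where Slc13a3 itself moved by -1.72 and the marker mean by -1.28, and it was -0.24 with the median of the markers in place of their mean. From JA to SNI Slc13a3 moved by 0.50 and the marker mean by 0.44, a difference of 0.06, which is within the SD of JA. From JA to PLM they moved by -1.22 and -0.83, a difference of -0.39, with overlap between the groups. JA replicate 3 had a marker mean of 5.58 and held 26.53 TPM of Slc13a3. PLM replicate 1 had a marker mean of 5.53 and held 10.28 TPM. JA replicate 2 had the lowest Slc13a3 of the sham samples with a marker mean of 6.32. Within the sham group the gene and the markers therefore did not follow the same order. JA replicate 3 also had the highest summed markers of meninges and fibroblasts, 341 TPM against 47.0 to 222.8 TPM in the other 8 samples. The same held for Schwann cells, 5963 TPM against 55.7 to 3437 TPM, and for blood, 3488 TPM against 992 to 2646 TPM. The part of these markers in its Slc13a3 level was not tested.

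**Figure D3:**
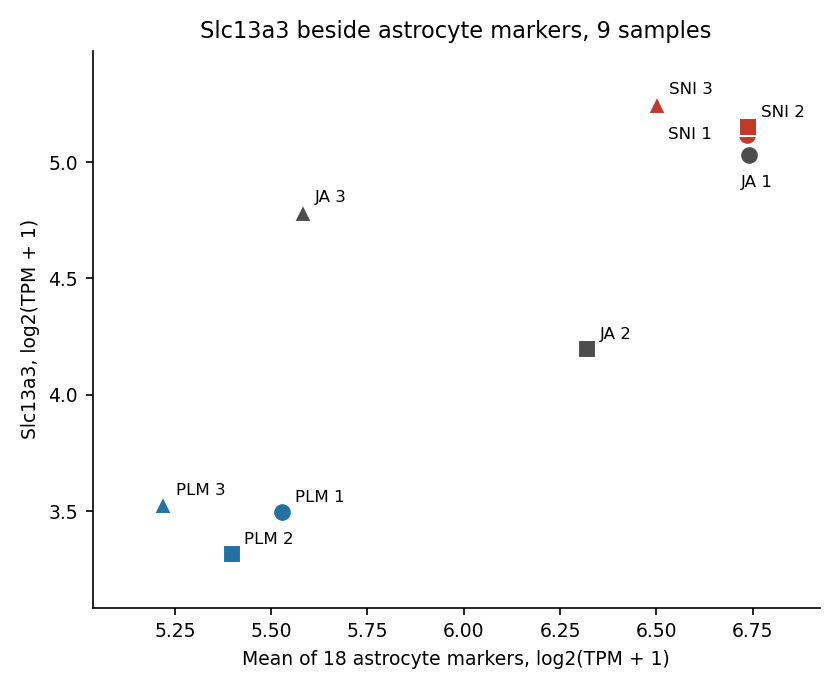
Slc13a3 against the mean of 18 astrocyte markers, both as log2(TPM + 1), with 1 point per sample. JA replicate 3 lies near PLM on the marker axis, at 5.58, and near the other untreated samples on the Slc13a3 axis, at 4.78.

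The neuronal members were set beside neuron markers in the same way, a comparison chosen after the values were seen. Nat8l lay above the mean of 12 neuron markers by 0.75, 0.64 and 0.73 in JA, by 0.71, 0.58 and 0.72 in SNI and by 0.63, 0.56 and 0.68 in PLM. The groups overlapped, and the SD over 9 samples was 0.07 where that of Nat8l itself was 0.28. Of 9 marker lists the neuron list left the smallest spread for Nat8l. For Rimkla it was also the neuron list, with an SD of 0.32 where the gene alone had 0.42, and PLM samples were lower relative to it, at -3.83 to -3.67, than JA and SNI samples, at -3.45 to -2.95. This order depended on the list. Beside the astrocyte markers, with an SD of 0.37, Rimkla was at -2.58 to -2.13 in PLM, -2.92 to -2.44 in JA and -3.32 to -2.62 in SNI. Beside the oligodendrocyte and the microglia markers PLM overlapped with JA. For Slc13a3 the astrocyte list left the smallest spread, 0.43 against 0.80 alone. Aspa varied so little, with an SD of 0.08, that no list lowered it. Its smallest spread was beside the 8 microglia markers, with an SD of 0.0907, followed by the 12 oligodendrocyte markers, with 0.0926. Folh1 and Rimklb kept most of their spread beside every list, 0.31 of 0.35 and 0.25 of 0.27 at best, both for the oligodendrocyte list. The lists differ in size and in how much they vary, and these spreads are a description.

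The genes with profiles most like that of Slc13a3 were found by the root mean square difference of centred log2 values over the 9 samples, among 12472 genes with a symbol. The 10 nearest were Sod3, Plpp3, Fads2, Sdc4, Fzd2, Cyp7b1, Entpd2, Fads1, Aebp1 and Eva1a, with differences from 0.28 to 0.35 log2 units, where the median gene had 0.69 and a flat gene would have 0.66. Sod3, the extracellular superoxide dismutase, was nearest, with 30.0 ± 2.91, 36.2 ± 3.16 and 14.5 ± 1.95 TPM (SD over 3 samples of JA, SNI and PLM). Fads1 and Fads2, the desaturases of polyunsaturated fatty acid synthesis, and Cyp7b1, an oxysterol hydroxylase, act on lipids. Plpp3 is a lipid phosphate phosphatase, Sdc4 a cell-surface proteoglycan, Fzd2 a Wnt receptor and Entpd2 an ectonucleotidase. Cyp7b1 was at 9.38 ± 3.24, 13.6 ± 0.851 and 4.55 ± 0.401 TPM in JA, SNI and PLM. None of the 18 astrocyte markers was among the 10, and 4 were among the nearest 50, with Slc1a3 at rank 23 first. Apart from Sox9, at rank 1613, all of these markers ranked 363rd or better of the 12472 genes. Of the other members Rimkla ranked 474th, Folh1 499th, Rimklb 521st, Nat8l 5385th and Aspa 10405th. Since the 10 genes were picked for likeness to Slc13a3 over these samples, their low level in PLM follows from the choice. In JA replicate 3 Slc13a3 lay above 9 of the 10 on this scale.

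**Figure D4:**
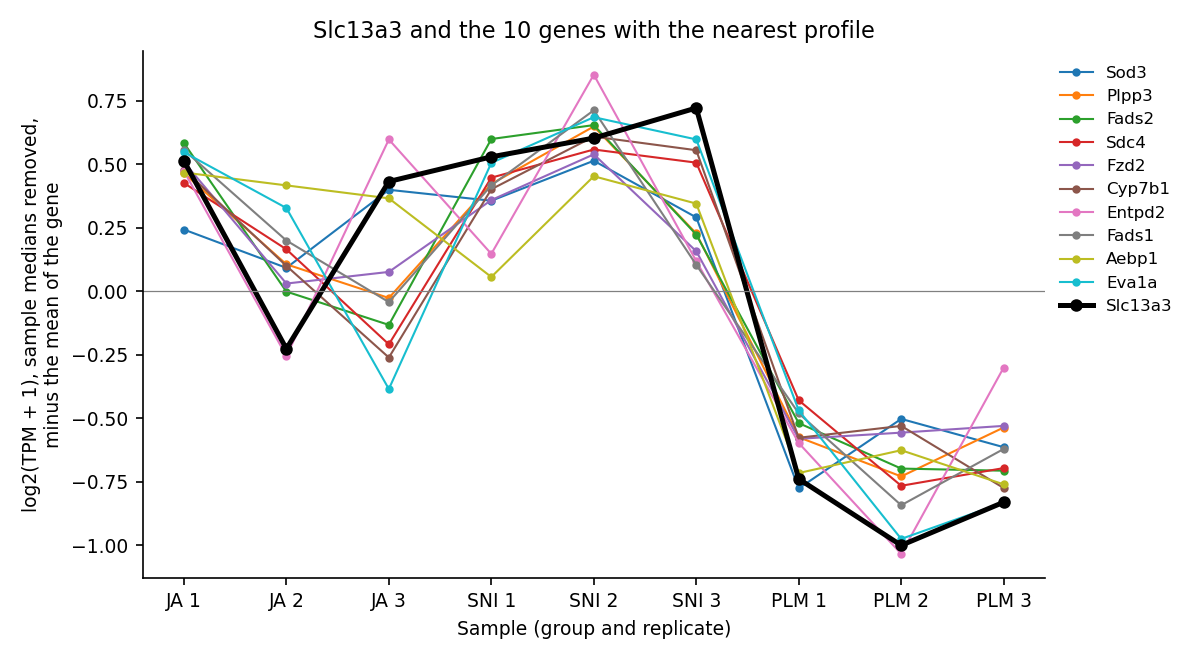
Centred log2(TPM + 1) minus the mean of the gene (vertical axis) in the 9 samples for Slc13a3 (black) and the 10 nearest genes. The genes were picked for likeness over these samples, so all lines are low in PLM by choice, and in JA replicate 3 Slc13a3 lies above 9 of the 10 genes.

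Other genes around the cycle were taken from a list of 23, of which 21 were in the table and 16 passed the limit of a mean of 1 TPM in PLM vs SNI. As deposited all 16 had a log2 fold change below 0, with a median of -0.35 against -0.21 for all loci, and 6 of 16, or 37.5%, passed an adjusted p-value under 0.05 in limma, where 13.6% of all loci did so in the lower direction. On centred values the median was -0.11 and 1 of 16 passed, Acss1, where 0.814% of all loci passed in either direction. The count as deposited also fell to 2 without SNI replicate 1 or PLM replicate 2 and to 3 without PLM replicate 1, where the share of all loci called in either direction fell from 13.9% to 1.90%, 1.78% and 2.03%. Acss1 passed in each of the 14 settings besides the main one, and no other gene of the list did.

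The acetate and citrate genes held 4 of the 6. Acss1, which activates acetate in mitochondria, was at 14.02, 12.91 and 13.27 TPM in SNI and at 5.71, 6.02 and 5.96 TPM in PLM, a log2 change of -1.06 (SE 0.07, adjusted p = 0.00396, limma), and -0.81 on centred values (adjusted p = 0.0263, limma). In JA it was at 13.58, 9.59 and 6.24 TPM, so that the lowest sham sample was close to PLM. The mean of the 18 astrocyte markers in these sham samples had the same order, 6.74, 6.32 and 5.58 on the log2 scale. In PLM vs SNI these markers had a median of -1.28 as deposited and -1.04 on centred values, where 11 passed. Their part in the result for Acss1 was not tested. Slc25a1, the mitochondrial citrate carrier, fell from 98.1 to 69.2 TPM (log2 fold change -0.50, adjusted p = 0.00844, limma). Acly, which makes acetyl-CoA from citrate, and Acss2, the cytosolic and nuclear acetate-activating enzyme, had log2 fold changes of -0.41 and -0.36 (adjusted p = 0.0184 and 0.0308, limma). On centred values Slc25a1, Acly and Acss2 had -0.25, -0.16 and -0.11 and did not pass.

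Of the SLC13 relatives, Slc13a5, the citrate carrier, was at 3.38, 3.18 and 2.57 TPM in SNI and at 1.1, 0.9 and 0.57 TPM in PLM, a log2 change of -1.13 (adjusted p = 0.0168, limma), and of -0.88 without passing on centred values. In JA it was at 2.63, 1.6 and 0.74 TPM. Its mean was 0.857 TPM in PLM and 3.04 TPM in SNI. Slc13a5 thus passed the limit of 1 TPM only through SNI, and nothing is read from its call. Slc13a4 was between 0.13 and 1.53 TPM and Slc13a1 and Slc13a2 were at most 0.37 TPM in every sample, so Slc13a3 was above these 4 relatives in each library. Acy1, an aminoacylase that removes acetyl groups from other amino acids, was lower in PLM with a log2 change of -0.43 (adjusted p = 0.0209, limma), and -0.18 without passing on centred values. Acy3, a close relative of Aspa, had -0.55 as deposited and -0.31 on centred values and did not pass in either (adjusted p = 0.0905 and 0.462, limma). Grm3, the receptor for NAAG, was at 26.4, 27.9 and 25.1 TPM in JA, SNI and PLM by mean, with a log2 change of -0.15 in PLM vs SNI (adjusted p = 0.201, limma). On centred values its sign turned, to 0.10 with all PLM samples above all SNI samples (adjusted p = 0.459, limma). Grm2 was below 1 TPM throughout. Slc17a5, the carrier sialin that moves NAAG into vesicles, had -0.38 (adjusted p = 0.0606, limma), and -0.13 on centred values. Of the 7 genes of aspartate supply 0 passed, and the largest value was -0.35 for the aspartate-glutamate carrier Slc25a12 (adjusted p = 0.0532, limma), which had -0.10 on centred values. With 1 TPM required in every sample 6 genes were called, among them Slc25a12. Slc13a5, at 0.9 and 0.57 TPM in PLM replicates 2 and 3, was then not tested. In SNI vs JA and in PLM vs JA 0 genes of the list passed the adjusted threshold in limma, and 2 of 17 and 4 of 16 had an unadjusted p-value under 0.05, beside 7.10% and 11.8% of all loci. The lowest of these p-values belonged to Slc25a1 in PLM vs JA, with a log2 change of -0.44 (adjusted p = 0.226, limma). On centred values these 2 counts were 0 of 17 and 2 of 16, beside 4.83% and 9.98% of all loci. In SNI vs JA the count was 9 of 18 without JA replicate 1 and 0 without JA replicate 2, JA replicate 3 or SNI replicate 1. All loci then had 17.8% and 3.08% to 4.58%. In PLM vs JA it was 6 without JA replicate 3 and 2 without JA replicate 2 or any PLM replicate. All loci then had 19.8% and 6.33% to 9.65%.

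**Figure D5:**
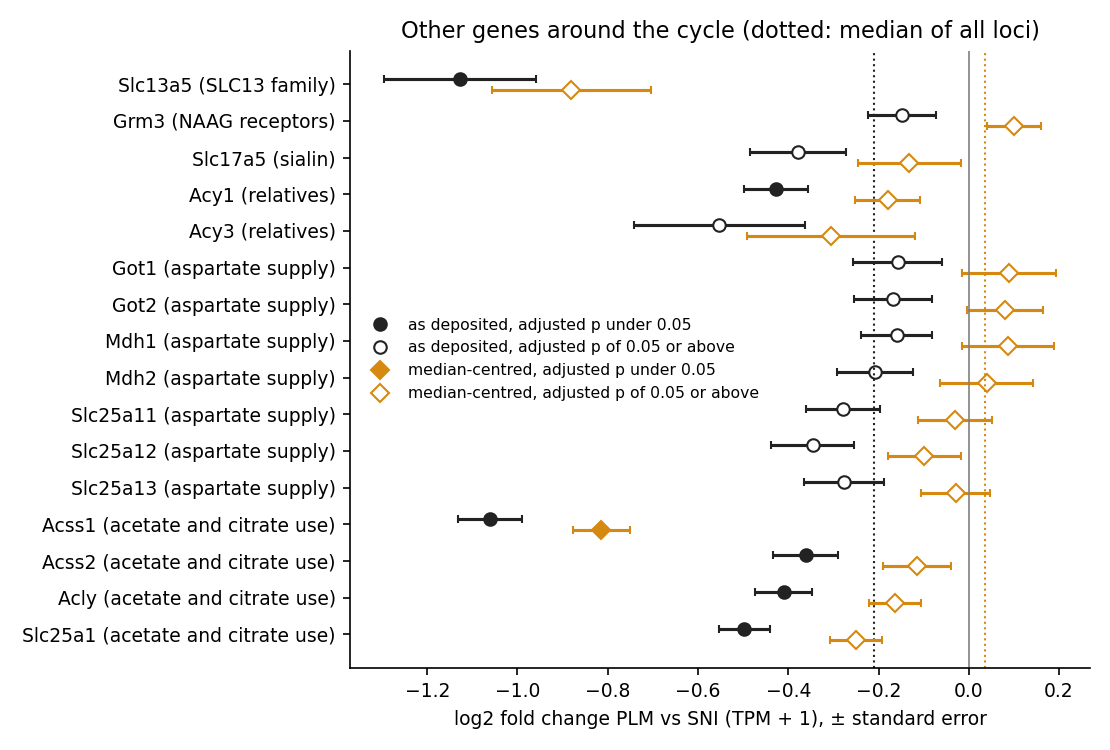
Fitted log2 fold change in PLM vs SNI (horizontal axis) with standard error of 16 genes around the cycle, as deposited (circles) and median-centred (diamonds), filled where the adjusted p-value from limma is under 0.05. Acss1 is filled in both, at -1.06 and -0.81, and the aspartate supply genes lie near the dotted median of all loci.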

How the data were processed

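RNA from 9 spinal cord samples was measured by sequencing. The authors removed adaptors and low-quality reads, mapped the rest with HISAT2 and computed expression with StringTie, and the submitters' processing notes name fastp 0.19.5. These notes also name build GRCh38.p13, a human build, while the identifiers are those of rat Ensembl genes, so the build behind the values is unclear and the values carry no coordinates here. The authors deposited 1 table of TPM values with 2 decimals. Read depth cannot be had from TPM, and counting error is unknown. Groups were taken from the sample titles. Each p-value sets a difference between groups against the spread between these samples, with the variance of each locus moderated over all loci. Pairs of groups were compared with limma 3.58.1 in R 4.3.3 on log2(TPM + 1), with a variance trend, for loci whose 6 samples averaged 1 TPM or more. The study's own test needs counts and was not used. Marker and pathway lists were written from general knowledge. The members and lists were chosen with earlier results of these data known. Named are the 7 members, the 10 genes nearest to Slc13a3 and pathway genes past the adjusted threshold or largest in their role. The other SLC13 relatives, Grm2, the ends of the astrocyte list and the astrocyte marker nearest to Slc13a3 are named as well. The alternatives were no filter, a minimum of 1 TPM in each sample, 0.1 as pseudocount, median centring, quantile normalization, TPM rescaled without mitochondrial genes, a fit to all 9 samples, a replicate block, and leaving out each sample. Promoter windows are RefSeq sequences on GRCr8. Proteins were not analysed here.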

Additional observations from a re-analysis of the deposited data

How the results depend on the processing

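Over the 14 other settings of each comparison the number of members past the adjusted threshold was 0 in SNI vs JA and in PLM vs JA, and the log2 fold change of Slc13a3 in PLM vs SNI lay between -1.81 and -1.48, and between -1.76 and -1.66 with 1 sample left out. The number of other pathway genes called in PLM vs SNI, 6 in the main setting, was 1 on median-centred values, 1 with quantile normalization, 3 with TPM rescaled without mitochondrial genes and 3 in a fit to all 9 samples. It was 2 to 5 with 1 sample left out. With the replicate number as a block it was 1. The share of all loci called, 13.9% in the main setting, was 0.814%, 1.00%, 1.76% and 3.14% in the first 4 of these, 1.78% to 9.70% with 1 sample left out and 0.982% with the block. The titles number the replicates and name no pairing. The deviations of same-numbered samples correlated at -0.05 to 0.12. A sample correlated best with its own number in 3 of 6, 2 of 6 and 2 of 6 cases in the 3 comparisons. With 3 samples per group these values cannot decide whether the numbers pair the samples. The block gave 152 in place of 2148 loci called in PLM vs SNI. The loci with an unadjusted p-value under 0.05 in limma went from 1104 to 1978 in SNI vs JA and from 1809 to 1419 in PLM vs JA. In PLM minus SNI, Slc13a3 relative to the astrocyte markers stayed between -0.57 and -0.24, and between -0.57 and -0.33 with 1 sample left out. The 10 genes nearest to Slc13a3 were the same 10 on values as deposited and with 1 TPM required in every sample. Naalad2 could be fitted only without a filter. The depth of the libraries is unknown, which limits what can be said of Naalad2, Slc13a4 and Grm2.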
